A study of Mus musculus with 18 samples.

Results

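Loss of Nav1.7 and loss of Nav1.9 were compared as changes of gene expression in whole dorsal root ganglia (DRG), with each null mutant set against its own littermates. The quantity described is the difference of differences on the log2 scale, which is the change in Nav1.7 KO (KO minus littermate) minus the change in Nav1.9 KO (KO minus littermate). A positive value means that a gene stood higher, relative to littermates, after loss of Nav1.7 than after loss of Nav1.9, and a negative value the reverse. The comparison used 12 of the 18 arrays of the series, with 3 arrays each of Nav1.7 KO, Nav1.7 littermate, Nav1.9 KO and Nav1.9 littermate DRG, and it covered all 17404 autosomal genes among the 18193 genes that have a probe set named for them alone. The remaining arrays, of global Nav1.8 null mutants and their littermates, shared in the estimate of the spread behind each p-value. They also served for a comparison of signs. Nav1.7 KO mice were conditional null mutants, made by crossing floxed *Scn9a* mice with mice that express Cre under the Advillin gene *Avil*, which restricts recombination to sensory neurons. Nav1.9 KO mice were global null mutants for *Scn11a*. Littermates are labelled wild type in both lines. The mice of the study were 8 to 12 weeks old and of both sexes, and the background strain and the sex of each array are not given in the sources used here. Whether each array held the RNA of 1 animal is not stated either, so p-values measure only the spread between these samples.

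Nav1.7 and Nav1.9 are voltage-gated sodium channels of damage-sensing neurons. Nav1.7 amplifies small depolarizations and helps to start and propagate action potentials, whereas Nav1.9 carries a persistent current near the resting potential and sets excitability. Sensory neurons of the DRG include peptidergic nociceptors, non-peptidergic nociceptors, low-threshold C fibres and myelinated mechanoreceptors, and after axon damage they switch on a known programme of transcription factors, neuropeptides and growth genes.

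The ganglia carried the markers of sensory neurons in all 4 groups, and the mean level over the 7 listed markers ran from 12.26 to 12.28 in Nav1.7 KO arrays, from 12.39 to 12.44 in Nav1.7 littermates, from 12.36 to 12.40 in Nav1.9 KO and from 12.39 to 12.45 in Nav1.9 littermates (log2 intensity). *Scn11a*, which encodes Nav1.9, was 10.90, 10.98 and 11.13 in Nav1.9 KO arrays against 12.61, 13.27 and 12.69 in littermates. *Scn9a*, which encodes Nav1.7, was 12.31, 12.19 and 12.24 in Nav1.7 KO arrays against 12.35, 12.34 and 12.24 in littermates, so the groups overlapped for its brightest probe set. All 5 probe sets of *Scn9a* had estimates below 0 in Nav1.7 KO, from -0.36 to -0.05, and the lowest 2 were -0.36 (unadjusted p = 0.0266, limma) and -0.31 (unadjusted p = 0.00986), against 0.27 and 0.24 in Nav1.9 KO. Whether any of them lies in the deleted part of the gene is not given in the sources used here. *Avil* was 12.21, 12.23 and 12.21 in Nav1.7 KO arrays against 12.80, 12.94 and 12.84 in littermates, and its difference of differences was -0.58 (adjusted p = 3.07e-05). Cre under *Avil*, lower *Avil* and loss of Nav1.7 come together in the Nav1.7 line and cannot be told apart. *Xist*, the RNA of the silenced X chromosome of female cells, was high in all 3 Nav1.7 littermate arrays and in Nav1.7 KO replicates 1 and 3, and low in Nav1.7 KO replicate 2 and in all 6 arrays of the Nav1.9 line. Array medians ran from 6.33 to 6.36 over the 18 arrays, and replicates correlated at 0.996 to 0.998. In whole ganglia, fewer cells of a type and less RNA per cell cannot be told apart.

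The changes of the 2 lines differed for 495 of the 17404 autosomal genes at an adjusted p under 0.05, which is 2.84% (limma on all 18 arrays, Benjamini-Hochberg adjustment over all genes). The difference was positive for 217 genes (1.25%) and negative for 278 (1.6%). Its size was over 1 on the log2 scale for 59 genes, 25 positive and 34 negative, and the median size over the 495 was 0.48, against 0.09 over all autosomal genes. The median signed value over all autosomal genes was 0.00. At the edge of the threshold stood *Ctsl* at 0.26 and *Iqgap3* at -0.41 just inside, and *Fst* at 1.41 and *Trim9* at 0.40 just outside.

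Most of these genes changed more after loss of Nav1.7. The size of the change was larger in Nav1.7 KO than in Nav1.9 KO for 380 of the 495. Taken alone, Nav1.7 KO against littermates called 763 autosomal genes (4.38%) and Nav1.9 KO against littermates 84 (0.483%). Of the 495, 340 were called in Nav1.7 KO and not in Nav1.9 KO, 44 in Nav1.9 KO and not in Nav1.7 KO, 12 in both and 99 in neither. The 12 called in both all had opposite directions, and so did the estimates of the 99 called in neither. A gene with opposite changes has the larger difference of differences, so the share of opposite signs among called genes, 425 of 495 against 8846 of all 17404, is a description. Across all autosomal genes the changes in Nav1.7 KO and in Nav1.9 KO correlated at r = -0.14 and rho = -0.06 (across genes, which are not independent replicates).

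**Figure D1:**
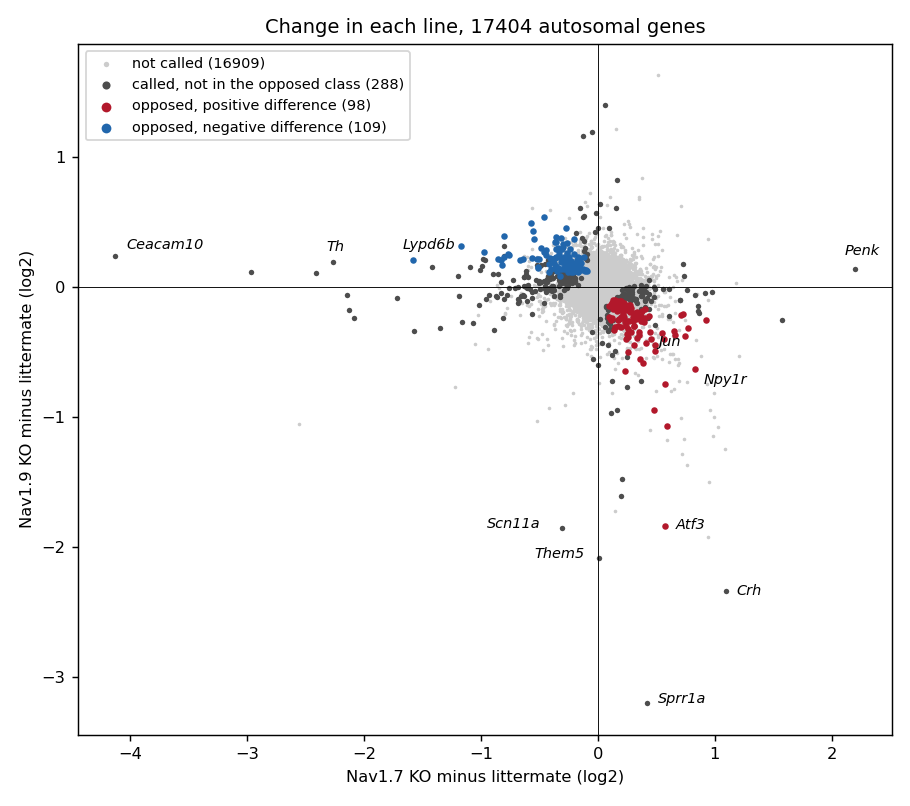
Each point is 1 of 17404 autosomal genes, with the log2 change in Nav1.7 KO on the x axis and the log2 change in Nav1.9 KO on the y axis. Black points are called genes outside the opposed class, and the 98 red and 109 blue points are genes of opposed direction in the lines, which fill the lower right and the upper left.

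Genes were put in an opposed class when the difference of differences was called, the estimates had opposite signs and the unadjusted p was under 0.05 in each line. The class held 207 genes. In 98 the level was higher in Nav1.7 KO and lower in Nav1.9 KO than in the littermates of the same line, with a median change of 0.26 in Nav1.7 KO and -0.24 in Nav1.9 KO. In 109 it was lower in Nav1.7 KO and higher in Nav1.9 KO, with medians of -0.29 and 0.20. For 158 of the 207 the 3 KO arrays lay wholly on one side of the 3 littermate arrays in each line, and on opposite sides in the 2 lines. This held for 427 of all 17404 genes (2.45%). The class was chosen by these same values, so this count is a description.

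Promoter sequences are shown for 3 genes with positive differences whose upstream stretch holds the letters TGANTCA, the core of the site bound by AP-1, the dimer that Jun forms with Fos or ATF family proteins. They are *Sprr1a*, which had the largest positive difference of all autosomal genes, and *Npy1r* and *Bdnf*, which were called in both lines. Each run covers the 250 bases before the transcription start, 5′ to 3′ on the strand of the gene, from RefSeq on build GRCm38.p6, with the TGANTCA match in capitals. For *Bdnf* it is the only 1 of 7 start sites with a match.
Sprr1a, chr3:92485882-92486131, minus strand: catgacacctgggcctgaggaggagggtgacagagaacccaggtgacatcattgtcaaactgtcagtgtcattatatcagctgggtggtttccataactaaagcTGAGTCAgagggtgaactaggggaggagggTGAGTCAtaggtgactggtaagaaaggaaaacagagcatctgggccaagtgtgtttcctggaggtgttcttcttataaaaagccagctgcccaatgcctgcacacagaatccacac
Npy1r, chr8:66697172-66697421, plus strand: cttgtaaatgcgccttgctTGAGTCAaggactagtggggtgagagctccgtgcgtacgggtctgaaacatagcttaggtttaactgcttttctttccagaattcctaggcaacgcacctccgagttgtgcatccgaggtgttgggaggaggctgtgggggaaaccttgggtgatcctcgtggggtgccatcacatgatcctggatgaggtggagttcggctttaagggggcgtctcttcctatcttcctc
Bdnf, chr2:109676782-109677031, plus strand: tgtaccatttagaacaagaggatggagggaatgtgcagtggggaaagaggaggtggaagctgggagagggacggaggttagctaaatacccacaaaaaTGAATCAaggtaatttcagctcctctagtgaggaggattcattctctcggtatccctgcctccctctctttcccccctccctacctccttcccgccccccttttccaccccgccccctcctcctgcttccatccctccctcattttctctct
In windows from 250 bases before to 50 after the start, on both strands, TGANTCA occurred for 1033 of the 13833 autosomal genes tested that have a window (7.47%) and for 8.97% of the 27025 genes with any window. It occurred for 6 of 77 opposed genes with a positive difference (7.79%) and 4 of 83 with a negative one (4.82%), and over all called genes for 12 of 168 positive (7.14%) and 15 of 217 negative (6.91%). TGACGTCA, the cyclic AMP response element, which does not contain TGANTCA, occurred for 5 of 77 (6.49%) and 1 of 83 (1.20%) opposed genes and for 6 of 168 (3.57%) and 4 of 217 (1.84%) called genes, against 2.99% of tested genes. *Jun* and *Atf3* themselves held neither motif in their windows. A match is a description of letters and not of binding.

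Among the 12 genes called in both lines, 8 were higher in Nav1.7 KO and lower in Nav1.9 KO than in littermates. *Jun*, a transcription factor of the AP-1 family that is induced by axon damage, was 10.43, 10.49 and 10.77 in Nav1.7 KO arrays against 10.12, 10.13 and 10.21 in littermates, and 10.08, 10.02 and 10.15 in Nav1.9 KO arrays against 10.53, 10.52 and 10.49 in littermates. The groups were apart in both lines and on opposite sides. The change was 1.33-fold upward in Nav1.7 KO (adjusted p = 0.00256) and 1.34-fold downward in Nav1.9 KO (adjusted p = 0.0121), and the difference of differences was 0.84 ± 0.10 (standard error, adjusted p = 0.000171, limma). The second, dimmer probe set of *Jun* gave 0.96 in Nav1.7 KO and -0.59 in Nav1.9 KO, a difference of 1.56.
*Bdnf*, a neurotrophin that nociceptors release onto spinal neurons, was 10.03, 10.10 and 10.43 in Nav1.7 KO arrays against 9.62, 9.73 and 9.49 in littermates. It was 9.76, 9.73 and 9.48 in Nav1.9 KO arrays against 10.45, 10.10 and 10.66 in littermates. Neither line showed overlap, and the difference of differences was 1.32 ± 0.19 (standard error, adjusted p = 0.000942). *Npy1r*, the Y1 receptor for neuropeptide Y on peptidergic neurons, was 8.25, 8.19 and 8.10 in Nav1.7 KO arrays against 7.32, 7.24 and 7.50 in littermates, and 7.39, 6.99 and 6.94 in Nav1.9 KO arrays against 7.70, 7.64 and 7.87 in littermates. Its difference of 1.46 ± 0.17 (standard error, adjusted p = 0.000116) was the largest of the 12, with a 1.77-fold increase in Nav1.7 KO and a 1.55-fold decrease in Nav1.9 KO. A second probe set of *Npy1r* gave 0.17 and was not called.
*Flrt3*, an adhesion protein of the FLRT family that acts in axon guidance, was 9.02, 9.27 and 9.01 in Nav1.7 KO arrays against 8.72 on all 3 littermate arrays, and 8.58, 8.59 and 8.62 in Nav1.9 KO arrays against 9.42, 8.95 and 9.16 in littermates. Its difference was 0.97 ± 0.13 (standard error, adjusted p = 0.000408). *Tifa*, an adaptor of NF-kappaB signalling, had 0.98, *Nectin3*, a cell adhesion molecule, 0.63, *Plin2*, a protein of lipid droplets, 0.58 and the membrane protein gene *Tmem176b* 0.47.

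**Figure D2:**
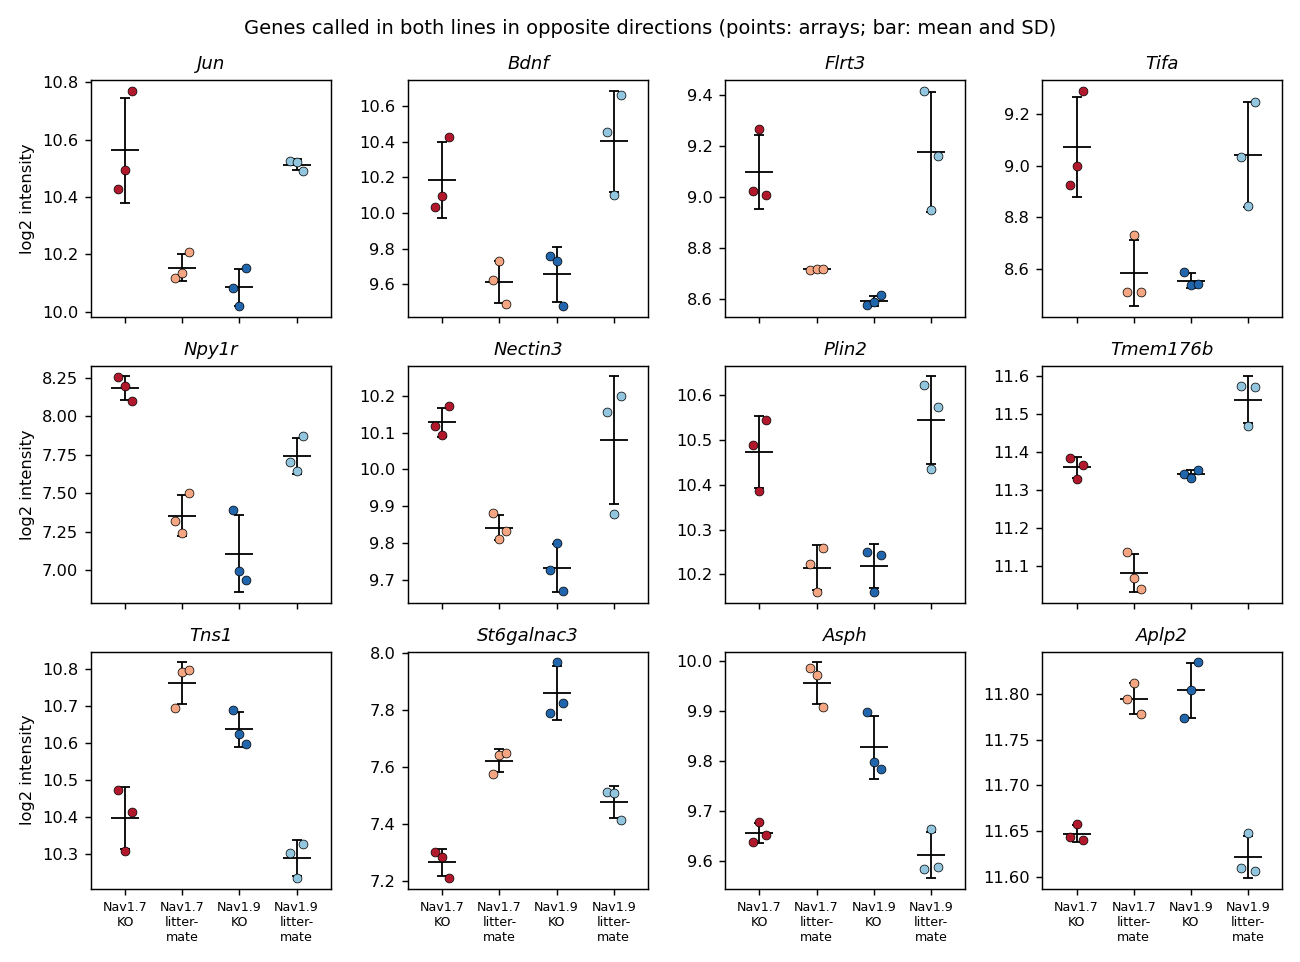
Each panel shows 1 of the 12 genes called in both lines, with log2 intensity on the y axis and the 4 groups on the x axis, where points are arrays and bars give the mean and SD. In the upper 8 panels Nav1.7 KO stands above its littermates and Nav1.9 KO below its own, and in the lower 4 panels the reverse.

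The remaining 4 of the 12 were lower in Nav1.7 KO and higher in Nav1.9 KO. *Tns1*, which links integrin adhesions to actin, was 10.47, 10.31 and 10.41 in Nav1.7 KO arrays against 10.70, 10.79 and 10.80 in littermates, and 10.69, 10.62 and 10.60 in Nav1.9 KO arrays against 10.30, 10.24 and 10.33 in littermates. The difference was -0.71 ± 0.07 (standard error, adjusted p = 5.77e-05), but 2 further probe sets of *Tns1* were not called, and without probe sets that may detect other transcripts the value was -0.03 (adjusted p = 0.875). *St6galnac3*, a sialyltransferase of gangliosides, was 7.30, 7.28 and 7.21 in Nav1.7 KO arrays against 7.57, 7.64 and 7.65 in littermates, and 7.79, 7.97 and 7.83 in Nav1.9 KO arrays against 7.51, 7.51 and 7.41 in littermates. Its difference was -0.74 ± 0.09 (standard error, adjusted p = 0.000301). *Asph*, a hydroxylase of the endoplasmic reticulum, had -0.52 and *Aplp2*, a relative of the amyloid precursor protein, -0.33. When the probe sets of each gene were averaged, neither *Asph* (-0.23, adjusted p = 0.155) nor *Aplp2* (-0.27, adjusted p = 0.0732) was called.

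Genes of the axon damage programme, among them *Sprr1a* and *Atf3*, had positive values. The list of injury effectors and neuropeptides had 26 members, of which 12 were called with a positive difference and 0 with a negative one, against 1.25% and 1.6% of all autosomal genes. Its median was 0.77 against 0.00 over all genes, and 24 of the 26 were positive. This list and all the others were taken with earlier results of these data known, so list counts and medians are descriptions. In the list of 12 injury transcription factors, 4 were called, all positive, and the median was 0.14. The 4 were *Atf3*, *Jun*, *Sox11* and *Smad1*. Leaving out any 1 of the 12 arrays gave 9 to 14 called effectors and 4 called factors, and leaving out both arrays farthest apart in muscle genes (given with the other cell types) gave 9 and 3.
*Atf3*, a transcription factor that marks damaged sensory neurons, was 7.71, 8.21 and 8.41 in Nav1.7 KO arrays against 7.64, 7.39 and 7.57 in littermates, and 7.89, 7.59 and 7.74 in Nav1.9 KO arrays against 10.35, 8.97 and 9.41 in littermates. The Nav1.9 littermates stood above the other 9 arrays. The change of 0.58 in Nav1.7 KO was not called (adjusted p = 0.300), the change in Nav1.9 KO was 3.57-fold downward (adjusted p = 0.00711), and the difference of differences was 2.41 ± 0.38 (standard error, adjusted p = 0.00202). *Sprr1a*, a gene of axon regrowth, was 5.99, 5.92 and 5.91 in Nav1.7 KO arrays against 5.49, 5.55 and 5.52 in littermates, and 6.08, 5.69 and 5.51 in Nav1.9 KO arrays against 10.40, 7.77 and 8.70 in littermates. Its difference, 3.62 ± 0.64 (standard error, adjusted p = 0.00485), came mostly from the Nav1.9 line, since the change was 0.42 in Nav1.7 KO (adjusted p = 0.721) and -3.20 in Nav1.9 KO (adjusted p = 0.00554). Without Nav1.9 littermate replicate 1 it was 2.90 (adjusted p = 0.00128), and the value of *Atf3* was 2.02 (adjusted p = 0.00115). Analysis of variance on the 12 arrays called neither gene (adjusted p = 0.0797 for *Sprr1a* and 0.0570 for *Atf3*).
*Sox11*, a transcription factor of neurite growth, was 7.94, 8.33 and 8.65 in Nav1.7 KO arrays against 7.71, 7.77 and 7.98 in littermates, which overlapped. In the Nav1.9 line it was 7.86, 8.10 and 7.88 in KO arrays against 9.53, 8.51 and 8.65 in littermates. The difference was 1.43 ± 0.29 (standard error, adjusted p = 0.0132), and neither line alone passed (adjusted p = 0.252 in Nav1.7 KO and 0.0594 in Nav1.9 KO). *Cckbr*, a cholecystokinin receptor, had 1.66 (adjusted p = 0.00494), with 0.22 and no call for its second probe set, and *Vgf*, a precursor of secreted neuropeptides, 1.11 (adjusted p = 0.00243).
*Lgals3*, the lectin galectin-3, differed from these in that Nav1.7 KO carried more of the difference. It was 10.25, 10.42 and 10.11 in Nav1.7 KO arrays against 9.75, 9.48 and 9.31 in littermates, and 10.16, 10.16 and 10.01 in Nav1.9 KO arrays against 10.65, 10.42 and 10.39 in littermates. The difference was 1.12 ± 0.16 (standard error, adjusted p = 0.0011). *Gpr151* (1.799), *Npy* (1.68), *Il6* (1.10), *Gadd45a* (0.75) and *Gap43* (0.37) were also called, and these 5 are named after their values were seen. *Bdnf* and *Flrt3*, described above, and *Cacna2d1* (0.35) completed the 12. *Nts*, the neurotensin gene, had a larger value of 2.14 but did not pass (adjusted p = 0.0736). Of 18 immediate early genes of neuronal activity, 0 were called in either direction, which is near the 2.84% of all autosomal genes. At an unadjusted p under 0.05 (limma) there were 2 (11.1%, against 16.1% of all autosomal genes), and the median was -0.07. In Nav1.9 KO taken alone 1 of the 18 was called, downward.

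**Figure D3:**
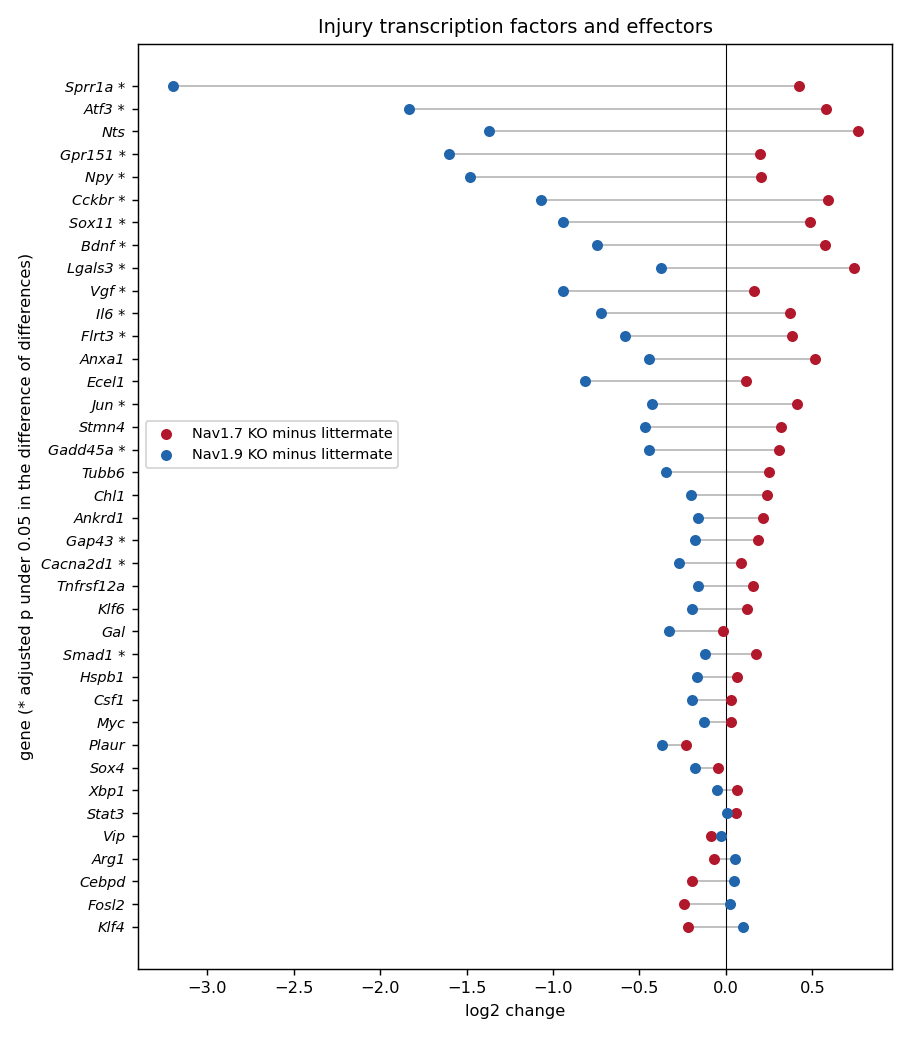
Each row is 1 gene of the lists of injury transcription factors and effectors, with the log2 change in Nav1.7 KO in red and in Nav1.9 KO in blue, and the genes run down from the most positive to the most negative difference of differences. Values in Nav1.9 KO reach -3.20 for *Sprr1a*, while those in Nav1.7 KO stay between -0.24 and 0.76.

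The littermate groups of the lines stood further apart than the KO groups for 98 of the 207 opposed genes (47.3%), against 52.1% of all autosomal genes. Over the 98 opposed genes with a positive difference, the median of Nav1.7 KO minus Nav1.9 KO was 0.25, and that of Nav1.7 littermates minus Nav1.9 littermates was -0.29. Nav1.9 littermates had the highest of the 4 group means in 58 of the 98 and Nav1.7 KO in 40, while Nav1.7 littermates had the lowest in 56 and Nav1.9 KO in 42. By the choice of these genes no other group could be highest or lowest, so these counts are descriptions. That choice also set the KO difference above the littermate difference for each gene, so the medians are descriptions too. Over the 12 called injury effectors, which were likewise chosen by their positive difference, the KO groups differed by a median of 0.30 and the littermate groups by -0.78. Among the 3 Nav1.9 littermate arrays, replicate 1 was the highest in 9 of the 12. For *Atf3* the KO groups of the lines differed by 0.37 and the littermate groups by -2.04.
Over the 109 opposed genes with a negative difference the KO groups differed by -0.29 and the littermates by 0.19. There Nav1.7 KO had the lowest of the 4 means in 78 and Nav1.9 littermates in 31. These counts and medians were shaped by the choice of the genes in the same way and are descriptions. Line and *Xist* class cannot be told apart in this comparison of littermates.
The series also held Nav1.8 null mutants and their littermates. *Atf3* averaged 7.77 in Nav1.8 KO and 8.47 in Nav1.8 littermates. The change in Nav1.8 KO had the sign of the change in Nav1.9 KO in 84 of the 98 positive and 59 of the 109 negative opposed genes, against 51.5% of all autosomal genes, and reached an unadjusted p under 0.05 in 44 of the 207 (21.3%), against 8.02% of all autosomal genes. *Xist* was high in Nav1.8 KO replicates 2 and 3 and low in replicate 1 and in the Nav1.8 littermate arrays. Genotype and *Xist* class are therefore mixed in the Nav1.8 change.

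Several of the largest differences were carried mainly by 1 line. *Ceacam10*, a cell adhesion molecule of the carcinoembryonic antigen family, was 4.99, 4.43 and 4.56 in Nav1.7 KO arrays against 8.82, 8.65 and 8.89 in littermates, and 9.34, 9.19 and 9.27 in Nav1.9 KO arrays against 9.004, 9.09 and 8.99 in littermates. The difference was -4.36 ± 0.16 (standard error, adjusted p = 2.08e-10). *Penk*, the precursor of the enkephalins, was 9.74, 10.82 and 9.60 in Nav1.7 KO arrays against 7.88, 7.77 and 7.90 in littermates. In the Nav1.9 line it was 9.43, 9.41 and 9.01 in KO arrays and 9.14, 9.10 and 9.20 in littermates, which overlapped. Its difference was 2.06 ± 0.41 (standard error, adjusted p = 0.0107), and it was not called by analysis of variance on the 12 arrays (adjusted p = 0.0607). Nav1.7 littermates stood below every array of the Nav1.9 line for this gene.
*Blnk*, an adaptor protein that acts downstream of the B-cell receptor, had 1.83, and *Gm16364* -3.08, *Hal*, which breaks down histidine, -2.52, *Wfdc2*, a secreted protease inhibitor, -2.09 and *Lrrc31* -1.96, all with the larger change in Nav1.7 KO. *Crh*, the corticotropin-releasing hormone gene, was 3.86, 4.16 and 6.21 in Nav1.7 KO arrays against 3.71, 3.62 and 3.62 in littermates, and 3.84, 4.07 and 3.62 in Nav1.9 KO arrays against 7.78, 4.89 and 5.87 in littermates. The estimates were 1.09 in Nav1.7 KO and -2.34 in Nav1.9 KO, and in both high groups 1 array stood above the others. Its value of 3.43 (adjusted p = 0.0417) lost the call without any 1 of 9 of the 12 arrays, among them Nav1.7 KO replicate 3 (2.70, adjusted p = 0.0640) and Nav1.9 littermate replicate 1 (2.63, adjusted p = 0.0716). *Them5*, a thioesterase, was lower in Nav1.9 KO arrays (4.61, 6.56 and 4.78) than in their littermates (7.61, 7.44 and 7.14) and was 7.50, 7.06 and 7.30 in Nav1.7 KO against 7.38, 7.26 and 7.19 in their littermates. Its value of 2.09 (adjusted p = 0.0249) lost the call without any 1 of 6 arrays, at adjusted p of 0.0533 to 0.0658.

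Most of the opposed genes with the most negative differences had the larger part of the difference in Nav1.7 KO. *Lypd6b*, a modulator of nicotinic receptors, was 5.79, 5.79 and 5.67 in Nav1.7 KO arrays against 7.46, 7.28 and 7.25 in littermates, and 8.68, 8.90 and 8.91 in Nav1.9 KO arrays against 8.66, 8.73 and 8.48 in littermates. The Nav1.9 groups overlapped, and the difference was -1.78 ± 0.13 (standard error, adjusted p = 8.11e-07). Both groups of the Nav1.7 line stood below the Nav1.9 line. *Kcnmb1*, an auxiliary subunit of large-conductance calcium-activated potassium channels, had -1.49, with -0.33 and no call for its second probe set, *Fbp2*, an enzyme of gluconeogenesis, -1.24, and *Ppp1r1a*, an inhibitor of protein phosphatase 1, -1.07. *Sh2d4a* had -1.19, the non-coding RNA *Lncpint* -1.06, with estimates of -0.57 in Nav1.7 KO and 0.49 in Nav1.9 KO, *Otoa* and *Fam241a* -1.04 each, *Ctxn3* -1.02 and *Paqr5*, a membrane progestin receptor, -1.005. In Nav1.9 KO alone none of these 10 passed (adjusted p from 0.0742 to 0.403).
On the positive side, *Epha5*, an ephrin receptor of axon guidance, was 8.81, 9.10 and 8.82 in Nav1.7 KO arrays against 8.17, 8.13 and 8.13 in littermates, and 8.02, 8.05 and 7.98 in Nav1.9 KO arrays against 8.32, 8.29 and 8.37 in littermates. The groups were apart in both lines and the difference was 1.08 ± 0.10 (standard error, adjusted p = 2.37e-05). *Timeless*, a factor of replication forks, had 1.18, but 0.43 (adjusted p = 0.0899) with the mean of its probe sets, *Fam210b* 1.03 and *Rasef*, a small GTPase, 0.99.

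Markers of nociceptor classes moved in different directions. Of 9 autosomal markers of peptidergic nociceptors, 4 were called, all positive, with a list median of 0.36, and of 13 markers of non-peptidergic nociceptors 5 were called negative and 1 positive, with a median of -0.49. Over all autosomal genes 1.25% were called positive and 1.6% negative. The changes were mostly those of Nav1.7 KO, where the medians were 0.21 for peptidergic and -0.33 for non-peptidergic markers, against -0.09 and 0.04 in Nav1.9 KO. In the Nav1.7 line the mean level of the peptidergic list was apart, from 10.53 to 10.55 in KO arrays against 10.35 to 10.40 in littermates. That of the non-peptidergic list overlapped, from 9.72 to 10.25 against 9.93 to 10.58. *Trpv1*, the heat- and capsaicin-gated channel, was 11.78, 11.75 and 11.67 in Nav1.7 KO arrays against 11.20, 11.17 and 10.98 in littermates, and 11.49, 11.58 and 11.56 in Nav1.9 KO arrays against 11.57, 11.54 and 11.56 in littermates. Only the Nav1.7 groups were apart, and the difference was 0.63 ± 0.08 (standard error, adjusted p = 0.000201). *Tac1*, the precursor of substance P, had 0.44, with 0.37 in Nav1.7 KO and -0.07 in Nav1.9 KO (unadjusted p = 0.102, limma). Its arrays were apart in both lines, but the change in Nav1.9 KO did not pass. A second probe set of *Tac1* gave 0.13 and was not called. *Gfra3*, the artemin receptor, had 0.52 and *Adcyap1*, the precursor of the peptide PACAP, 0.51.
*Runx1*, a transcription factor of the non-peptidergic lineage, was 9.85, 9.69 and 9.53 in Nav1.7 KO arrays against 10.56, 10.50 and 10.43 in littermates, and 10.26, 10.31 and 9.73 in Nav1.9 KO arrays against 9.91, 9.67 and 10.005 in littermates. The Nav1.9 groups overlapped and the difference was -1.04 ± 0.19 (standard error, adjusted p = 0.00524). *Prkcq* (-0.99), *Lpar3* (-0.56), *Cd55* (-0.53) and *Plxnc1* (-0.44) were also negative, and *Mrgpra3*, an itch receptor, was positive at 0.56. *Lpar3* and *Mrgpra3* are named after their values were seen. *Th*, which marks low-threshold C fibres, had -2.46 ± 0.16 (standard error, adjusted p = 3.16e-07) and was the 1 called gene of 5 in its list. Of 12 markers of myelinated neurons, *Necab2* (-0.73) and *Ntrk2*, the BDNF receptor (-0.40), were called, against 2.84% of all autosomal genes.

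**Figure D4:**
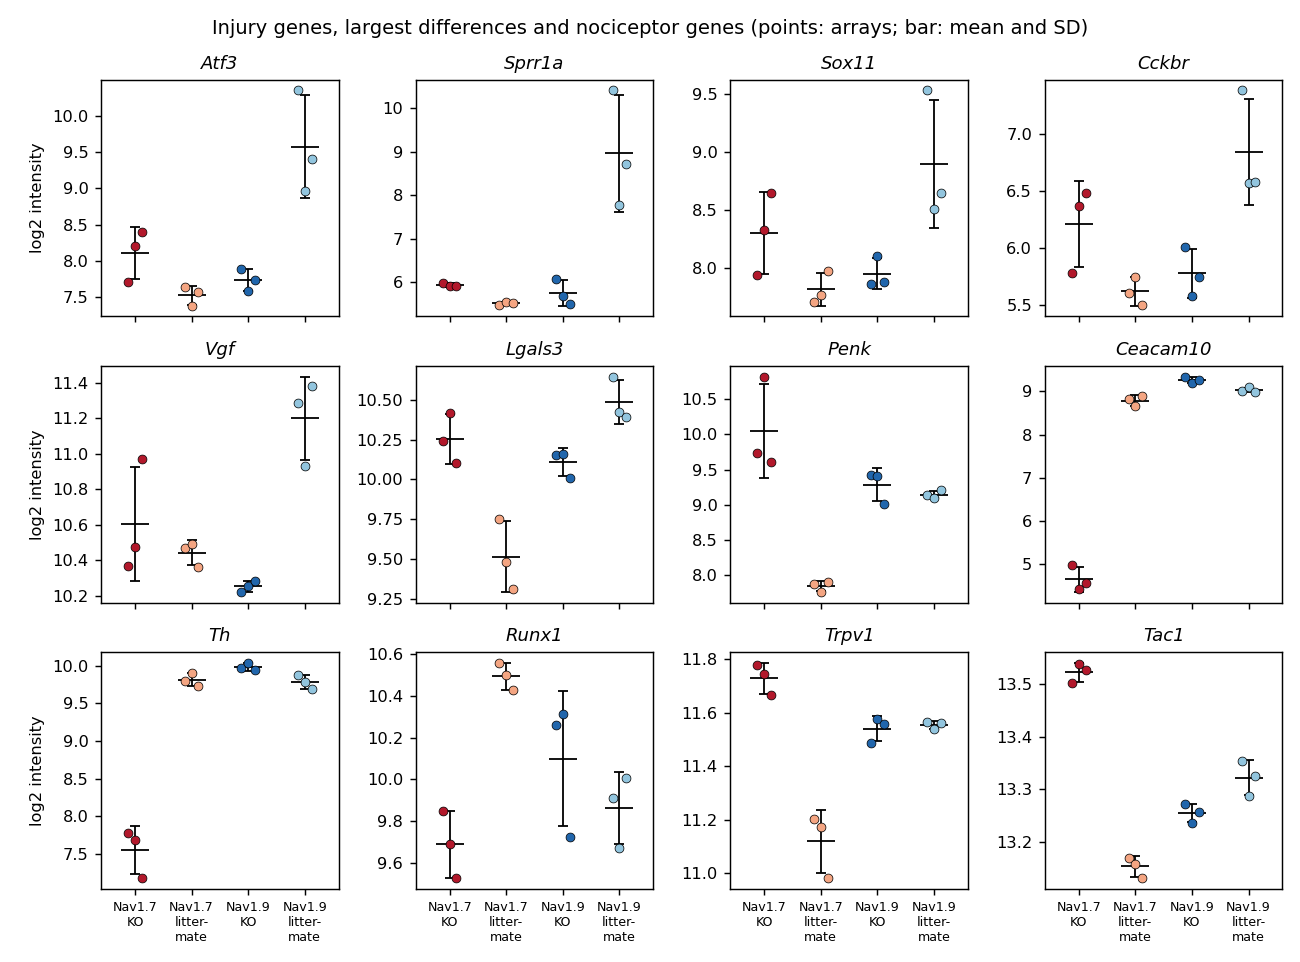
Log2 intensity of 12 genes in the 4 groups, with points for arrays and bars for the mean and SD. In *Atf3*, *Sprr1a* and *Vgf* the Nav1.9 littermates stand apart from the other groups, in *Ceacam10* and *Th* Nav1.7 KO does, and in *Trpv1* and *Penk* the difference lies in the Nav1.7 line.

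Among 22 potassium channels 3 were called (13.6%, against 2.84% of all autosomal genes), all negative, namely *Kcnn1* (-1.25), *Kcnd3* (-0.50) and *Kcnt1* (-0.48), which is apart in both lines. Among 15 calcium channel subunits 4 were called (26.7%), of which *Cacng2* (-0.56), *Cacna1h* (-0.39) and *Cacna2d3* (-0.37) were negative and *Cacna2d1*, the gabapentin-binding subunit, was positive (0.35). *Cacna2d1* gave 0.10 (adjusted p = 0.801) with the mean of its probe sets. Beside *Scn11a* (1.55), *Scn1a* was the only called gene of the 8 sodium channel alpha subunits on autosomes that were measured (-0.37, adjusted p = 0.0418). Leaving out any 1 of 8 arrays for *Scn1a* and any 1 of 7 for *Cacna1h* ended the call.
*Cyp26b1*, which degrades retinoic acid, had -0.61 (adjusted p = 0.0171, and 0.0513 without Nav1.9 littermate replicate 1), and *Hoxb5* -0.78. *Ptger4* (0.29) and *Ptgfr* (-0.53), both prostaglandin receptors, lost the call when most single arrays were left out. Lists of heat shock proteins, the circadian clock, glucocorticoid response, cholesterol synthesis, interferon response and neural RNA-binding proteins held 0 called genes (limma), with 0 to 3 members of each at an unadjusted p under 0.05. The shares over all autosomal genes were 2.84% and 16.1%.

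Of 35 called named genes with more than 1 probe set, 26 had all of them of 1 sign and 9 did not (*Aplp2*, *Nectin3*, *Asph*, *Timeless*, *Smad1*, *Kcnd3*, *Cacna2d1*, *Cacna1h* and *Ntrk2*). For *Ptger1*, *Msi2* and *Mbp*, the brightest probe set was not called and others were. The brightest probe set of *Ptger1*, the EP1 prostaglandin receptor, gave 0.11 (adjusted p = 0.785). Its dimmer probe set was 6.83, 7.04 and 6.66 in Nav1.7 KO arrays against 5.39, 5.24 and 5.75 in littermates, and 5.24, 5.42 and 5.66 in Nav1.9 KO arrays against 6.52, 6.39 and 6.05 in littermates. It was apart in both lines on opposite sides, with a difference of 2.27 ± 0.23 (standard error, adjusted p = 5.26e-05 over all probe sets), and it is of a type that can also detect other transcripts. *Msi2*, an RNA-binding protein of the Musashi family, gave -0.19 with the brightest probe set and -1.03 and -1.53 with the 2 called of its 8. *Mbp*, myelin basic protein, gave 0.05 with the brightest and -1.08 and -0.47 with the 2 called of its 8. Which transcripts these probe sets detect was not tested.

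Other cells of the ganglion moved with the pattern in part. Of 16 macrophage markers 15 had a positive difference with a list median of 0.52, 10 reached an unadjusted p under 0.05 (62.5%, against 16.1% of all autosomal genes), and 1 was called, *Adgre1* (0.59, adjusted p = 0.0168). Their mean level ran from 7.30 to 7.69 in Nav1.7 KO arrays against 6.91 to 7.25 in littermates, and from 7.34 to 7.53 in Nav1.9 KO against 7.47 to 7.63 in littermates. The level was therefore apart in the Nav1.7 line and overlapping in the Nav1.9 line. Satellite glia (9 genes, median 0.09), Schwann cells (10 genes, 0.03), endothelial cells (10 genes, 0.07) and fibroblasts (10 genes, 0.10) held 0 called genes (limma, against 2.84% of all autosomal genes), with 0 to 2 of each at an unadjusted p under 0.05. Genes of muscle, fat and blood also held 0 called of 6, and 0 at an unadjusted p under 0.05, with a median of 1.17, and their mean varied within groups, from 6.39 to 8.92 in Nav1.7 KO against 6.45 to 7.79 in littermates, and from 6.58 to 7.13 in Nav1.9 KO against 5.66 to 8.44 in littermates. The extremes were Nav1.7 KO replicate 1 and Nav1.9 littermate replicate 1. Without these 2 arrays 312 genes were called, 124 of them opposed. The part of macrophages and of tissue around the ganglion in these results was not tested.

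**Figure D5:**
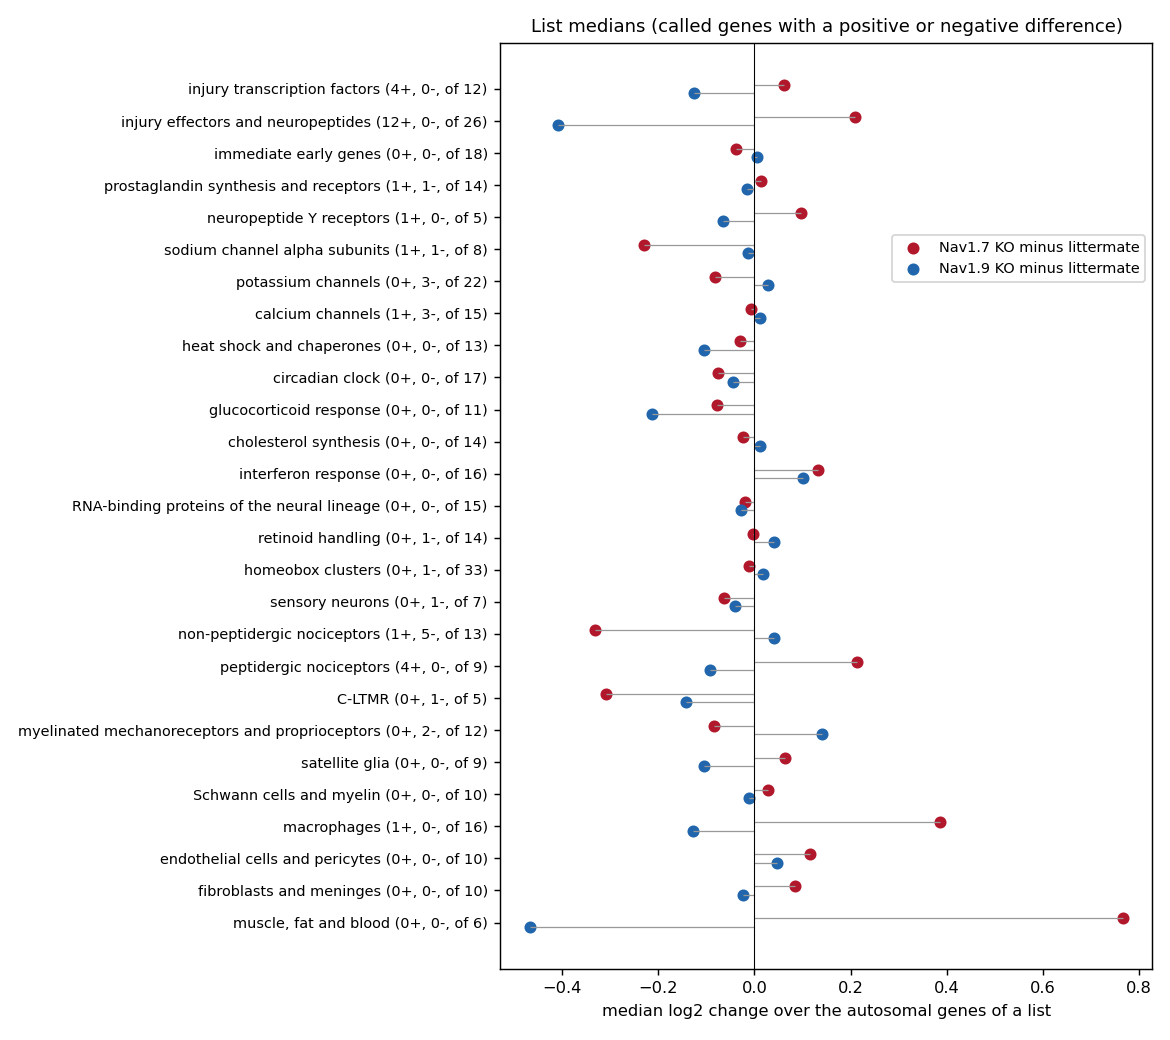
Median log2 change over the autosomal genes of each list, in Nav1.7 KO in red and in Nav1.9 KO in blue, with the number of genes called positive and negative in the difference of differences beside the name. Injury effectors, peptidergic markers and macrophage markers lie above 0 in Nav1.7 KO and below 0 in Nav1.9 KO, and so do the variable muscle, fat and blood genes. Further lists have the same signs with smaller medians in Nav1.7 KO. They are injury transcription factors, neuropeptide Y receptors, prostaglandin genes, satellite glia, Schwann cells and fibroblasts.

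Called genes lay on all 19 autosomes. Chromosome 3 had the highest share, 54 of 913 tested genes (5.91% against 2.84% over all), of which 31 were called in Nav1.7 KO and 13 in Nav1.9 KO. *Sprr1a*, *Crh*, *Them5*, *Tifa* and *St6galnac3* are on this chromosome. Shares on the others ran from 1.52% on chromosome 15 to 4.36% on chromosome 18.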

How the data were processed

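RNA of whole DRG was hybridized to Affymetrix mouse genome arrays, 3 per group. The values that the authors deposited, made with Affymetrix Expression Console, were read as log2 intensities from their range. The summary method is not named, and 18 arrays share nearly 1 distribution. Groups came from sample titles, since the source name calls all 18 samples littermate controls. Of 45101 probe sets, 34945 non-control ones had 1 gene symbol and 932 several. Each gene was represented by its brightest probe set, with no filter on dim probe sets and no detection calls. The 6 group means were fitted in limma 3.58.1 under R 4.3.3 (12 residual and 3.44 prior degrees of freedom), and the contrast of 4 groups was tested two-sided with Benjamini-Hochberg adjustment over 18193 genes. Named genes were those called in both lines, and the 10 most extreme opposed and 6 most extreme called genes per direction. The targeted genes and genes that the study lists for both lines were also named. Up to 4 called genes came from each of 27 lists. The members of these lists were all taken with earlier results of these data known. The fit was tested on simulated data. The number of arrays limits the precision. No columns were left unmapped. The alternatives were other normalizations, filters, probe sets, variance priors, array weights, a replicate block, *Xist* class, tests, thresholds and arrays left out.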

Additional observations from a re-analysis of the deposited data

Results flagged for a closer look

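For 68 of the 73 named genes the change in Nav1.7 KO differed from that in Nav1.9 KO by the test of the difference itself. Of these, 31 were positive and 37 negative. Most named genes were picked because they were called, so this count was largely set by the naming and is a description. Over all autosomal genes 2.84% were called. The values given are log2 differences of differences. Genes with the larger positive values were *Sprr1a* (3.62), *Crh* (3.43), *Atf3* (2.41), *Them5* (2.09), *Penk* (2.06), *Blnk* (1.83), *Cckbr* (1.66), *Scn11a* (1.55), *Npy1r* (1.46), *Sox11* (1.43) and *Bdnf* (1.32). Intermediate positive values were those of *Timeless* (1.18), *Lgals3* (1.12), *Vgf* (1.11), *Epha5* (1.08), *Fam210b* (1.03), *Rasef* (0.99), *Tifa* (0.98), *Flrt3* (0.97), *Jun* (0.84), *Nectin3* (0.63) and *Trpv1* (0.63). The smaller positive values were those of *Adgre1* (0.59), *Plin2* (0.58), *Gfra3* (0.52), *Adcyap1* (0.51), *Tmem176b* (0.47), *Tac1* (0.44), *Cacna2d1* (0.35), *Smad1* (0.30) and *Ptger4* (0.29). Genes with the larger negative values were *Ceacam10* (-4.36), *Gm16364* (-3.08), *Hal* (-2.52), *Th* (-2.46), *Wfdc2* (-2.09), *Lrrc31* (-1.96), *Lypd6b* (-1.78), *Kcnmb1* (-1.49), *Kcnn1* (-1.25), *Fbp2* (-1.24), *Sh2d4a* (-1.19), *Ppp1r1a* (-1.07) and *Lncpint* (-1.06). Intermediate negative values were those of *Otoa* (-1.04), *Runx1* (-1.04), *Fam241a* (-1.04), *Ctxn3* (-1.02), *Paqr5* (-1.005), *Prkcq* (-0.99), *Hoxb5* (-0.78), *St6galnac3* (-0.74), *Necab2* (-0.73), *Tns1* (-0.71), *Cyp26b1* (-0.61), *Avil* (-0.58) and *Cacng2* (-0.56). The smaller negative values were those of *Ptgfr* (-0.53), *Cd55* (-0.53), *Asph* (-0.52), *Kcnd3* (-0.50), *Kcnt1* (-0.48), *Plxnc1* (-0.44), *Ntrk2* (-0.40), *Cacna1h* (-0.39), *Scn1a* (-0.37), *Cacna2d3* (-0.37) and *Aplp2* (-0.33). Probe sets that are not the brightest of their gene also differed, with values of 2.27 for *Ptger1*, -1.53 and -1.03 for *Msi2* and -1.08 and -0.47 for *Mbp*. Samples far from the others of their group were not looked for, since groups of 3 are too small for such a test.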

How the results depend on the processing

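Leaving out each of the 12 arrays in turn gave 382 to 524 called genes (152 to 240 positive, 225 to 284 negative), 146 to 236 opposed genes, 503 to 769 called in Nav1.7 KO and 39 to 120 in Nav1.9 KO. The lowest of these for Nav1.7 KO, 503, came without Nav1.7 littermate replicate 3, and the count for Nav1.9 KO was 43, 51 and 54 without Nav1.9 KO replicates 1, 2 and 3, and 40 and 39 without Nav1.9 littermate replicates 1 and 3. With the 12 arrays of these lines only, 356 genes were called, 331 of them among the 495, with 142 positive and 25 called in Nav1.9 KO. Genes called in Nav1.9 KO numbered 147 with dim probe sets left out, 165 with a trend and robust prior and 149 with array weights. Analysis of variance on the 12 arrays called 246 genes (90 positive, 156 negative), 102 opposed, 46 in Nav1.7 KO and 0 in Nav1.9 KO, where limma called 84. An unadjusted p under 0.01 with a fold over 1.5 gave 247 (122 positive, 125 negative) and 98 opposed. Without both arrays farthest apart in muscle genes, an alternative chosen after the data were seen, 312 were called (119 positive), 124 opposed and 52 in Nav1.9 KO. With *Xist* class as a term 500 were called, 424 of them among the 495. Since every array of the Nav1.9 line was low in *Xist*, this term cannot tell a KO effect that depends on *Xist* class from an effect of line. Median centring gave 248 positive and 253 negative calls. The replicate block gave 468 called genes, and it ended no call of a named gene. Same-numbered KO and littermate arrays of the Nav1.7 line deviated together at r of 0.0154, 0.252 and 0.266 for replicates 1, 2 and 3. Arrays with unlike numbers in that line ran from -0.254 to 0.0164. In the Nav1.9 line same-numbered arrays ran from -0.194 to 0.0624 and the others from -0.261 to 0.242. Whether the numbers pair the arrays, by litter or batch, is not given in the sources used here. Over the named genes and all alternatives, 1637 values kept their side of the threshold, 110 lost it and 2 gained it (*Ptger1* and *Msi2*, with the mean of their probe sets), and none of the called values changed direction. *Crh*, *Them5*, *Scn1a*, *Cacna1h*, *Cyp26b1*, *Ptger4* and *Ptgfr* lost the call when single arrays were left out. Analysis of variance on the 12 arrays ended the call of 23 of the 73 named genes. Among them were *Atf3* (adjusted p = 0.0570), *Sprr1a* (0.0797), *Sox11* (0.142), *Cckbr* (0.0878), *Vgf* (0.0744) and *Penk* (0.0607). *Runx1* (0.0861), *Hoxb5* (0.0550) and *Adgre1* (0.0822) were lost in the same way. The causes were not tested. How far dim probe sets stood over background is unknown, since the values carry no detection calls.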
